A study of Mus musculus with 13 samples.

Results

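The 10 genes described here make up a core of the RB, E2F and G1 cyclin-CDK circuit: Rb1, Rbl1, E2f1, Ccnd1, Ccne1, Cdk4, Cdk6, Cdkn1b, Cdkn2a and Cdkn2b. They were taken by gene symbol from a table of 24421 genes counted in 13 libraries, and all 10 had enough reads to be tested. The set was chosen by measured values, because the level of Rb1 was higher in every recurrent than in every primary tumor. Values that compare recurrent with primary tumors are therefore given for the 10 genes as description, without a test.

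The libraries came from female mice of the FVB/N strain, line TgN (MMTV-HER2/neu) 202Mul/J, whose genotype field reads "Wild type". The line is transgenic for rat HER2/Neu, and because the MMTV promoter sits in front of the transgene, its expression is largely restricted to mammary epithelial cells. Its tumors are spontaneous. The 5 groups were normal mammary gland (n = 2), primary untreated tumors (n = 3), primary tumors from mice given stavudine (n = 3), tumors that recurred under 17-DMAG (n = 3), and tumors that recurred under 17-DMAG with stavudine (n = 2). Stavudine, a nucleoside inhibitor of reverse transcriptase, was supplied at 1 mg/mL in the drinking water, from 2 months of age or once tumors had appeared. No start was given per library, so the length of stavudine exposure may differ between the stavudine groups and between their tumors. 17-DMAG, an inhibitor of the chaperone Hsp90, was injected at 20 mg/kg, 3 times per week, and recurrent tumors had regrown after a complete response. Age at sampling was not given. Recurrent and primary tumors therefore differ in drug exposure as well as in recurrence, and these cannot be told apart. Each tumor library was labelled as an individual tumor, and no label links libraries to a shared mouse or batch.

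The retinoblastoma protein and its relatives p107 and p130, the pocket proteins, bind E2F transcription factors and hold back the genes a cell needs to copy its DNA. Cyclin D with CDK4 or CDK6, and then cyclin E with CDK2, phosphorylate the pocket proteins and release E2F. The INK4 inhibitors act on CDK4 and CDK6, whereas p27 and its relatives act on cyclin-CDK complexes more broadly. In mammary tumors driven by HER2/Neu, cyclin D1 and its kinases are well known partners of the oncogene.

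Total counts ran from 39921388 to 56887708 per library. Levels are CPM, a gene's reads relative to all reads of its library, scaled by TMM, a method that aligns libraries on their shared genes. Tests used edgeR's quasi-likelihood method, two-sided, and a gene was called when its Benjamini-Hochberg adjusted p over all genes tested was under 0.05. Gland replicate 2 had a scaling factor of 0.49 and a summed level of 692507 CPM over 6 milk protein genes. Luminal keratin and adhesion markers summed to between 1242 and 2662 CPM in the tumors. The lowest sum was in recurrent 17-DMAG plus stavudine replicate 2, which also held 1457 CPM of skeletal muscle markers. Recurrent 17-DMAG replicate 1 held 5572 CPM of fibroblast markers and 404 CPM of macrophage markers, against at most 876 and 148 CPM in primary tumors. In such bulk samples, fewer cells of a type and less RNA per cell cannot be told apart.

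Rb1 encodes the retinoblastoma protein and lies on chr14:73183673-73325822 of GRCm38, minus strand. Its level was 93.1, 57.1 and 58.2 CPM in primary untreated replicates 1 to 3 and 86.7, 100 and 103 CPM in primary stavudine replicates 1 to 3. It was 195, 128 and 123 CPM in recurrent 17-DMAG replicates 1 to 3 and 378 and 178 CPM in recurrent 17-DMAG plus stavudine replicates 1 and 2. Every recurrent tumor stood above every primary tumor, with the lowest recurrent value 1.19 times the highest primary value. The mammary glands, at 182 and 86.4 CPM, overlapped both kinds of tumor.

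**Figure D1:**
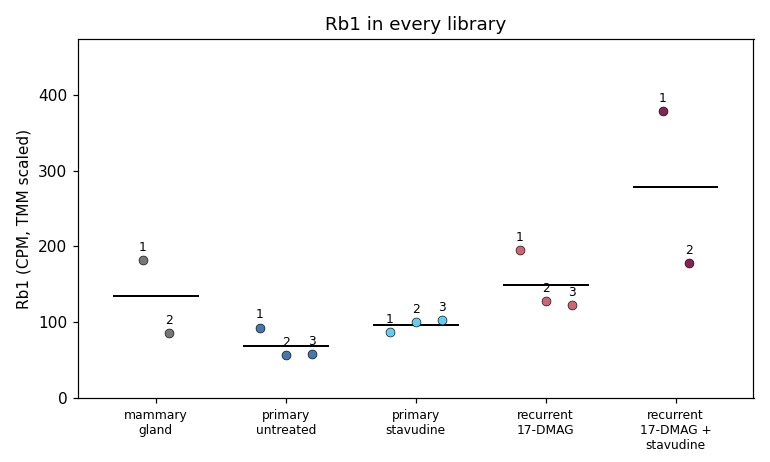
Rb1 level (CPM, TMM scaled, linear axis from 0) in each of the 13 libraries by group; points are libraries, numbers are replicates and bars are group means. All 5 recurrent tumors sit at or above 123 CPM and all 6 primary tumors at or below 103 CPM.

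By group mean, the order was recurrent 17-DMAG plus stavudine (278 ± 142 CPM, SD, n = 2), recurrent 17-DMAG (149 ± 40.2, n = 3), mammary gland (134 ± 67.5, n = 2), primary stavudine (96.8 ± 8.87, n = 3) and primary untreated (69.5 ± 20.5, n = 3). Neighbouring groups in this order overlapped in their libraries and did not differ beyond that spread. The recurrent minus primary log2 difference was 1.09 (SE 0.31) without stavudine and 1.52 (SE 0.33) with it. Without recurrent 17-DMAG plus stavudine replicate 1, the latter was 0.87, and without replicate 2 it was 1.96.

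Of the 16870 genes tested in tumors, 110 (0.652%) also had every recurrent tumor above every primary tumor, and Rb1 ranked 17 among them by the size of the gap. Rb1 was the only member of the 10 to do so, and this is the property the set was built on. When CPM was taken from the library total alone, the lowest recurrent value was 130 CPM and the highest primary value 109 CPM. Exons of Rb1 share 408 bp with Lpar6 and 488 bp with Rcbtb2, both on the opposite strand, and the strand setting of the counting was not given. Over all tumors Lpar6 spanned 25.3 to 41.1 CPM, Rcbtb2 33.7 to 42.5 CPM and Rb1 57.1 to 378 CPM. The part of reads from the shared bases in the Rb1 level was not tested. Itm2b, a nearby gene on the same strand, was at 1461 and 1266 CPM in the recurrent 17-DMAG plus stavudine tumors against 541 to 885 CPM in all other tumors (neighbours were looked up after the Rb1 values were seen).

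The 5 genes whose tumor profile was most like that of Rb1 were Lysmd2, Bspry, Smim3, Inpp5a and Gm973. Likeness was measured as the SD of the log2 ratio to Rb1 over the 11 tumors, among 12682 genes. It was 0.34 for Lysmd2 and 0.39 for Gm973, against a median of 0.85 over all genes and an SD of 0.79 for Rb1 itself. Each of the 5 had its highest recurrent value in the same tumor as Rb1, recurrent 17-DMAG plus stavudine replicate 1. Because the 5 were picked by likeness over these same tumors, the shared top tumor follows largely from the choice.

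Stavudine contrasts did not use the grouping on which the set was built, so Rb1 could be tested there. Its log2 difference was 0.47 (SE 0.30) in primary tumors, 0.91 (SE 0.33) in recurrent tumors and 0.69 (SE 0.23) over both. None passed the test, with edgeR adjusted p of 1.00, 0.550 and 0.993. The unadjusted p over both was 0.0135, and the adjusted p ranged from 0.342 to 1.00 over 20 alternative analyses. The change of Rb1 with recurrence did not differ detectably between water arms (interaction log2 0.44, SE 0.45, edgeR adjusted p = 0.851), and its sign turned to -0.24 without recurrent 17-DMAG plus stavudine replicate 1.

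Rbl1, which encodes p107, is itself a textbook E2F target. RefSeq promoter sequence (GRCm38.p6) was matched for 8 of the 10 genes, and Rbl1 was the only one of these with an exact E2F site in the 250 bases before its start. All 250 bases were searched for each gene, also where bases annotated as untranslated are left out of a printed stretch. The windows of E2f1 and Cdk6 lie inside the span that GENCODE gives these genes. For these genes, the bases before the outer GENCODE start were not searched. The sites searched were TTTCGCGC and TTTGGCGC on both strands, which occur in 0.654% of all 32851 promoter windows. Of the other pathway genes with a window, 8 of 43 (18.6%) held a site. The Rbl1 window, chr2:157204535-157204784 (minus strand), is shown 5′ to 3′ with the site in capitals; it begins 18 bases before the start.
Rbl1: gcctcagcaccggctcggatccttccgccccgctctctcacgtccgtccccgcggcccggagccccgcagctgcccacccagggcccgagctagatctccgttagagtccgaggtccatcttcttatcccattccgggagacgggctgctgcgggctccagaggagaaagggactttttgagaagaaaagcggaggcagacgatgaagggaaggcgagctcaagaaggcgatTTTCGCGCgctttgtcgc

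In the libraries, Rbl1 was at 32.2 and 28.4 CPM in the glands, 36.4, 24.9 and 30.2 CPM in primary untreated tumors and 31.2, 30.1 and 37.2 CPM in primary stavudine tumors. Recurrent tumors split by arm, at 43.1, 40.5 and 39.5 CPM under 17-DMAG alone and 30.0 and 21.4 CPM with stavudine. All 3 tumors of the first kind stood above the other 10 libraries, as for 0.753% of genes, while the latter lay within or below the primary range. The recurrent minus primary log2 difference was 0.41 (SE 0.17) without stavudine and -0.35 (SE 0.19) with it, the latter being -0.13 without recurrent 17-DMAG plus stavudine replicate 2. The difference between arms was -0.76 (SE 0.26) and did not pass the test (edgeR unadjusted p = 0.0151, adjusted p = 0.536, range 0.207 to 1.00 over 20 alternatives). Within recurrent tumors the stavudine difference was -0.67 (SE 0.19, edgeR adjusted p = 0.408, range 0.0790 to 1.00 over 21 alternatives).

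E2f1 encodes the activating E2F that pocket proteins restrain. It was at 8.57 and 16.1 CPM in the glands, 12.5, 5.93 and 7.24 CPM in primary untreated tumors and 11.4, 8.33 and 11.5 CPM in primary stavudine tumors. Recurrent tumors had 20.4, 10.1 and 15.5 CPM under 17-DMAG and 12.2 and 8.18 CPM with stavudine. All groups overlapped. The recurrent minus primary log2 difference was 0.83 (SE 0.34) without stavudine and -0.03 (SE 0.38) with it, and the interaction of -0.85 (SE 0.51) was not called (edgeR adjusted p = 0.719). The value with stavudine turned positive without recurrent 17-DMAG plus stavudine replicate 2 (0.22), primary stavudine replicate 1 (0.045) or primary stavudine replicate 3 (0.041).

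**Figure D2:**
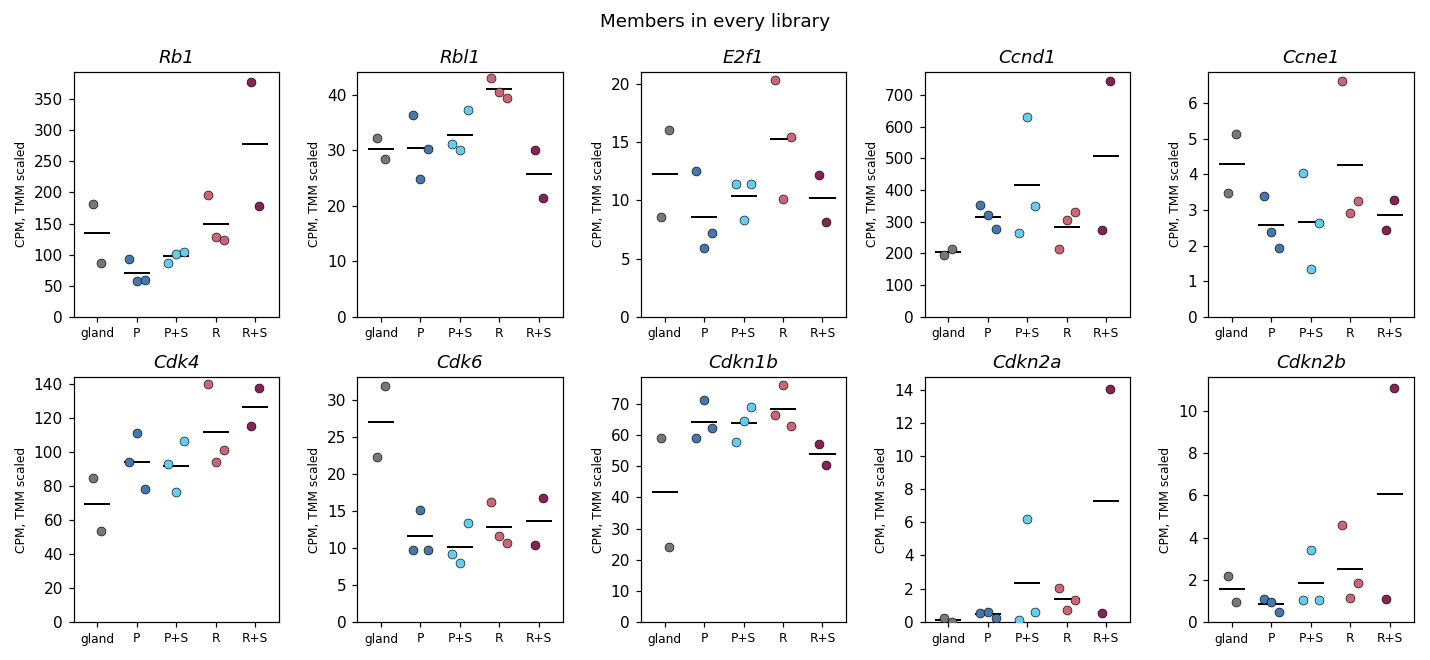
Level of each of the 10 genes (CPM, TMM scaled, linear axes from 0) in the 13 libraries: gland, P primary untreated, P+S primary stavudine, R recurrent 17-DMAG, R+S recurrent 17-DMAG plus stavudine; points are libraries and bars group means. Rb1 separates recurrent from primary tumors, Cdk6 lies higher in both glands than in all 11 tumors, and Ccnd1, Cdkn2a and Cdkn2b have single high tumors.

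Ccnd1, encoding cyclin D1, was the most abundant of the 10 per length of transcript. Over the 11 tumors it averaged 78.4 CPM per kb of exon, followed by Cdk4 (32.1), Rb1 (22.7) and Cdkn1b (13.9). Cdk6 averaged 0.848 CPM per kb, and Cdkn2a lay below Cdk6 in 7 of the 11 tumors. The level of Ccnd1 was 195 and 212 CPM in the glands, 352, 319 and 276 CPM in primary untreated tumors and 265, 630 and 348 CPM in primary stavudine tumors. In recurrent tumors it was 214, 306 and 331 CPM under 17-DMAG and 272 and 745 CPM with stavudine. Primary stavudine replicate 2 and recurrent 17-DMAG plus stavudine replicate 2 stood well above the other 9 tumors. The recurrent minus primary log2 difference was -0.17 (SE 0.40) without stavudine and 0.30 (SE 0.44) with it, the latter turning to -0.61 without the recurrent tumor just named. The value without stavudine was 0.017 when recurrent 17-DMAG replicate 1 was left out. An annotated gene on the opposite strand, not used here, shares 1100 bp of Ccnd1 exon.

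Ccne1, encoding cyclin E1, was low throughout, at 3.48 and 5.14 CPM in the glands and 1.33 to 4.03 CPM in the 6 primary tumors (median 2.51). Recurrent tumors had 6.62, 2.93 and 3.25 CPM under 17-DMAG and 2.44 and 3.28 CPM with stavudine. Only recurrent 17-DMAG replicate 1 lay above both glands, and the recurrent minus primary log2 difference was 0.72 (SE 0.47) without stavudine and 0.11 (SE 0.52) with it. Leaving out recurrent 17-DMAG replicate 1 brought the first to 0.27. The value with stavudine turned to -0.13 without recurrent 17-DMAG plus stavudine replicate 2 and to -0.23 without primary stavudine replicate 2.

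Cdk4, the main kinase partner of cyclin D1, was at 84.9 and 53.6 CPM in the glands, 76.1 to 111 CPM in primary tumors (median 93.5) and 93.9 to 140 CPM in recurrent tumors. Its recurrent minus primary log2 difference was 0.23 (SE 0.20) without and 0.47 (SE 0.22) with stavudine. Without stavudine the groups overlapped, and the difference was 0.055 when recurrent 17-DMAG replicate 1 was left out. Under stavudine the recurrent tumors, at 115 and 137 CPM, lay above the primary ones at 93.0, 76.1 and 106 CPM, as did 17.4% of genes in that arm. Part of a Cdk4 exon, 641 bp, is shared with Tspan31 on the opposite strand.

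Cdk6, the other cyclin D kinase, was at 22.2 and 31.8 CPM in the glands. Primary tumors had 9.76, 15.1 and 9.70 CPM when untreated and 9.12, 7.90 and 13.3 CPM under stavudine. Recurrent tumors had 16.2, 11.6 and 10.6 CPM under 17-DMAG and 10.4 and 16.7 CPM with stavudine. Both glands lay above all 11 tumors, as for 6.99% of genes, while the tumor groups overlapped with each other. An annotated gene on the opposite strand, not used here, shares 368 bp of Cdk6 exon.

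In the comparison of all tumors with glands, Cdk6 was the only member called. It fell by 1.18 on the log2 scale (SE 0.26, edgeR adjusted p = 0.0188), and 1 of 10 members called stands beside 10.4% of all 17135 genes tested (1.6% higher and 8.81% lower); by unadjusted p under 0.05 it was 4 of 10 beside 29.6%. The call held in 18 of 21 alternatives, with adjusted p from 0.00139 to 0.313; it was lost with the replicate block (0.0692), with primary untreated tumors alone (0.0697) and without gland replicate 2 (0.313, log2 -0.81). Glands also held 668 to 849 CPM of adipocyte markers against 5.31 to 102 CPM in tumors, and 254 to 799 CPM of basal markers against 14.1 to 254 CPM. Fibroblast markers were 2233 to 2473 CPM in glands and 239 to 5572 CPM in tumors; the part of these cells in the Cdk6 difference was not tested. Ccnd1 was higher in every tumor than in both glands, as were 4.2% of genes, but was not called (log2 0.87, SE 0.39, edgeR adjusted p = 0.163, range 0.0760 to 0.452).

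The remaining members did not pass this test. Cdk4 differed by 0.60 (SE 0.22, edgeR adjusted p = 0.107), Cdkn1b by 0.58 (SE 0.26, 0.160) and Cdkn2a by 3.72 (SE 1.80, 0.195). Without gland replicate 1, whose milk protein sum was 27106 CPM, the Cdk4 and Cdkn1b differences were 1.01 and 1.41. These values rest on gland replicate 2 alone, with its scaling factor of 0.49 and 692507 CPM of milk proteins. With both glands, the other differences were 0.49 for Cdkn2b, 0.08 for Rbl1, -0.05 for Rb1, -0.18 for E2f1 and -0.51 for Ccne1. Among 52 other genes of the pathway, 3 were called, beside 10.4% of all 17135 genes tested. Rrm2, a subunit of ribonucleotide reductase, rose by 0.76 (SE 0.16, edgeR adjusted p = 0.0179), and Uhrf1, a partner of DNA methylation maintenance, by 0.86 (SE 0.23, 0.0412). Ccnd2, encoding cyclin D2, fell by 1.91 (SE 0.46, 0.0273). Uhrf1 kept its call in 12 of 21 alternatives, Ccnd2 in 17 and Rrm2 in 20.

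Cdkn1b, encoding p27, varied least of the 10 over the tumors. It was at 59.3 and 24.2 CPM in the glands, 57.9 to 71.5 CPM in primary tumors (median 63.5), 66.5, 76.1 and 63.0 CPM in recurrent 17-DMAG tumors and 57.3 and 50.4 CPM in those with stavudine. Its SD of log2 CPM over tumors was 0.17, against a median of 0.37 for all genes and 1.94 for Cdkn2a. Both recurrent tumors with stavudine lay below the 3 without it, as for 10.5% of genes, a log2 difference of -0.34 (SE 0.14) that was not called (edgeR adjusted p = 0.592).

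Cdkn2a, which encodes p16INK4a and p19ARF from separate first exons, and Cdkn2b, which encodes p15INK4b, are neighbours on the minus strand of chromosome 4, at chr4:89274471-89294653 and chr4:89306299-89311039. The table counts Cdkn2a as a single gene, so its products are not separated. The sequence before each start is shown 5′ to 3′ from RefSeq (GRCm38.p6, minus strand), because both genes were highest in the same tumor, recurrent 17-DMAG plus stavudine replicate 2. None of them holds either of the E2F sites searched, and no capitals are therefore used. The first Cdkn2a window is chr4:89294654-89294869, the second chr4:89282193-89282442 and that of Cdkn2b chr4:89311040-89311282.
Cdkn2a, upstream start: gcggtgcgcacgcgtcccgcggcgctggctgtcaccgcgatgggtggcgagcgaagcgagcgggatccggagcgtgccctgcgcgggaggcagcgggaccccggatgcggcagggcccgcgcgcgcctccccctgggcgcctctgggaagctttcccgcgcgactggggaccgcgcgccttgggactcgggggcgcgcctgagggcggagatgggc
Cdkn2a, downstream start: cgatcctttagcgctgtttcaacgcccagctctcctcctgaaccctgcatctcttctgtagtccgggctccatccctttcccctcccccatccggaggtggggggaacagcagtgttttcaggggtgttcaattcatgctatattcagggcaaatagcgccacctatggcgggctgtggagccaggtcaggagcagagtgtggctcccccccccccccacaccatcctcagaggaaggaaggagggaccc
Cdkn2b: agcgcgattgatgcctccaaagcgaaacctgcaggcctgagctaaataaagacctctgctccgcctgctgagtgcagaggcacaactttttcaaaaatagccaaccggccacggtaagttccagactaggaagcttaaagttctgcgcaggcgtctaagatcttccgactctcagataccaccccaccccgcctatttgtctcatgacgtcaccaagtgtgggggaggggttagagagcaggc

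Cdkn2a was at 0.242 CPM in gland replicate 1 and had 0 counts in gland replicate 2, which allows up to 0.107 CPM. Primary untreated tumors had 0.538, 0.611 and 0.201 CPM and primary stavudine tumors 0.0921, 6.22 and 0.612 CPM. Recurrent tumors had 2.06, 0.737 and 1.34 CPM under 17-DMAG and 0.508 and 14.05 CPM with stavudine. The same 2 tumors that were high for Ccnd1 were high here. That limit covers counting error only.

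Cdkn2b was at 2.18 and 0.928 CPM in the glands, 1.10, 0.938 and 0.461 CPM in primary untreated tumors and 1.01, 3.39 and 1.05 CPM in primary stavudine tumors. Recurrent tumors had 4.61, 1.14 and 1.85 CPM under 17-DMAG and 1.09 and 11.1 CPM with stavudine. Recurrent 17-DMAG plus stavudine replicate 2 was highest for both inhibitors, followed for Cdkn2b by recurrent 17-DMAG replicate 1 and then primary stavudine replicate 2. Recurrent minus primary log2 differences were 1.598 (SE 1.39) and 1.66 (SE 1.46) for Cdkn2a, and 1.59 (SE 0.88) and 1.75 (SE 0.94) for Cdkn2b, without and with stavudine. Without recurrent 17-DMAG plus stavudine replicate 2, the values with stavudine turned to -2.17 and -0.73. Without recurrent 17-DMAG replicate 1, the Cdkn2b value without stavudine was 0.85.

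**Figure D3:**
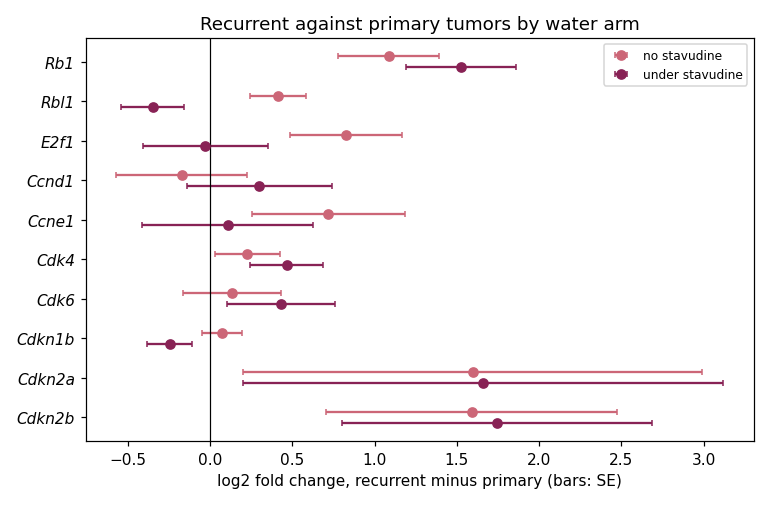
Log2 fold change of recurrent over primary tumors for the 10 genes, without stavudine (3 against 3 tumors) and under stavudine (2 against 3); points are edgeR estimates and bars their SE. Rb1 is positive in both arms (1.09 and 1.52), and Rbl1 has opposite signs in the 2 arms (0.41 and -0.35).

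Ccnd1 and Cdkn2a shared their 2 highest tumors, primary stavudine replicate 2 and recurrent 17-DMAG plus stavudine replicate 2. Over all genes tested, 2.23% had the same 2 tumors on top. Among the 4 other CDK inhibitors, Cdkn2c, encoding p18INK4c, did so too, at 39.5 and 36.8 CPM against 9.87 to 17.3 CPM in the other tumors. No gene of the other lists did, among them 18 S-phase targets of E2F. This pattern was looked for after the values were seen. Mtap, which lies beyond Cdkn2a on the same chromosome, was at 44.6 CPM in the recurrent tumor of the pair but 13.7 CPM in the primary one, against 8.52 to 23.4 CPM in tumors outside the recurrent stavudine arm. Skeletal muscle markers summed to 1457 CPM in the recurrent tumor of the pair and 142 CPM in the primary one. Primary untreated replicate 1, with 0.538 CPM of Cdkn2a, held 942 CPM of them. The part of muscle tissue in this pattern was not tested.

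**Figure D4:**
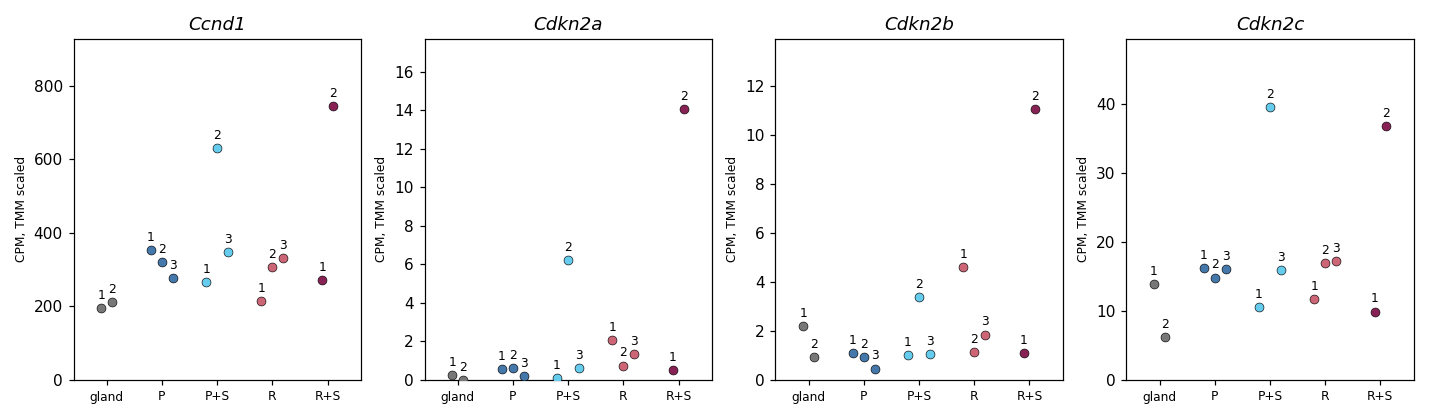
Ccnd1, Cdkn2a, Cdkn2b and Cdkn2c (CPM, TMM scaled, linear axes from 0) in every library, with groups labelled gland, P, P+S, R and R+S and numbers giving replicates. Replicate 2 of P+S and replicate 2 of R+S are the highest tumors for Ccnd1 (630 and 745 CPM), Cdkn2a (6.22 and 14.05) and Cdkn2c (39.5 and 36.8).

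Stavudine against none was next compared for the whole set. No member was called in primary tumors, in recurrent tumors or over both, and 0% of all genes were called in each. At an unadjusted edgeR p under 0.05 there were 0, 3 and 2 members, beside 3.76%, 7.84% and 4.71% of all genes; DESeq2 called 17, 277 and 51 genes and none of the members. In recurrent tumors the 3 were Rb1 (0.91), Rbl1 (-0.67) and Cdkn1b (-0.34). Over both kinds of tumor they were Rb1 (0.69) and Cdkn2a (2.37, SE 1.02, edgeR unadjusted p = 0.0445). The Cdkn2a difference in primary tumors was 2.34 and turned to -0.35 without primary stavudine replicate 2, and that in recurrent tumors was 2.40 and turned to -1.44 without recurrent 17-DMAG plus stavudine replicate 2. Under the same omissions the Ccnd1 differences went from 0.38 to -0.05 and from 0.85 to -0.06.

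For the recurrent against primary comparisons, 0% of genes were called by edgeR in either arm or over both. At an unadjusted p under 0.05 these comparisons held 9.69%, 10.1% and 13.6% of genes. Without stavudine, 4 of 10 members (Rb1, Rbl1, Cdkn2a and Cdkn2b) were higher in all 3 recurrent than in all 3 primary tumors, beside 7.65% of genes, and 0 were lower, beside 7.45%. Under stavudine Rb1 and Cdk4 were higher without overlap, beside 17.4%, and Rbl1 and Cdkn1b lower, beside 17.9%. These counts use the grouping on which the set was built. The median difference of the 10 members was 0.57 without stavudine and 0.36 with it, against -0.01 and 0.01 over all genes. Leaving out recurrent 17-DMAG replicate 1 brought the first to 0.33, and leaving out recurrent 17-DMAG plus stavudine replicate 2 brought the latter to -0.13, with 4 of 10 members positive in place of 7.

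The readout downstream of this circuit was followed in 18 S-phase genes that E2F is known to drive, such as the Mcm helicase subunits, Pcna and Tk1. Without stavudine, the recurrent minus primary difference was positive for all 18 (median log2 0.45), and under stavudine it was negative for 16 of 18 (median -0.23). Of all 16870 genes tested, 8330 were positive without stavudine and 8134 were negative under it. The 18 genes were read in the same tumors, so their signs are not independent of each other. The difference between the arms was negative for all 18, with a median of -0.71 against 0.03 over all genes. None of the 18 was called in any of these comparisons. By unadjusted edgeR p under 0.05, 8 of 18 differed between arms, beside 7.84% of all genes. The list was chosen with earlier results of these data known, so this share is no independent support. No gene of the table was called for this interaction (DESeq2 called 189 genes). Pola1, the catalytic subunit of DNA polymerase alpha, had the lowest value of the 18 (-1.16, SE 0.31, edgeR adjusted p = 0.4663), and Rrm2 the value nearest 0 (-0.07).

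**Figure D5:**
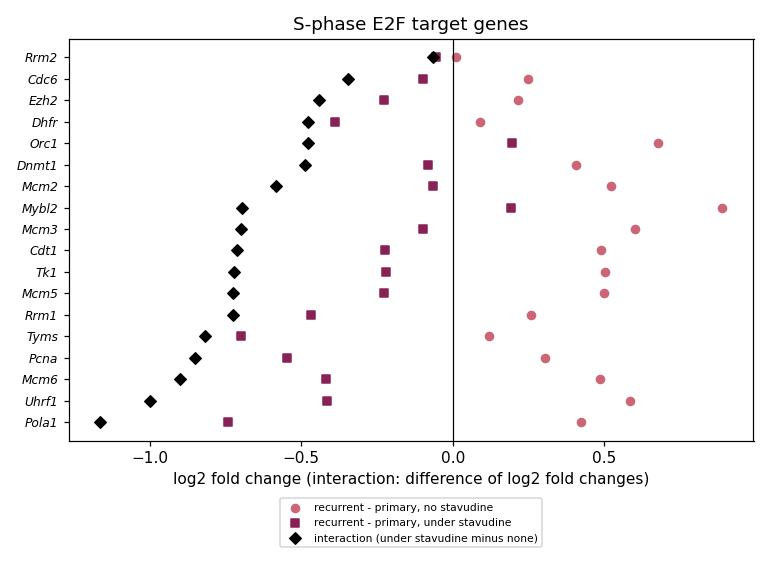
Log2 fold change of 18 S-phase E2F target genes, recurrent over primary without stavudine (circles), recurrent over primary under stavudine (squares) and the difference of these (diamonds, interaction). All 18 circles lie above 0 and all 18 diamonds below 0; no gene passed the adjusted test.

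The size of this pattern depended on the 2 recurrent stavudine tumors. Without replicate 2, 9 of 18 differences under stavudine were negative (median -0.04), 17 of 18 interaction values stayed negative (median -0.50) and 2 of 18 had an unadjusted p under 0.05. Without replicate 1 the median under stavudine was -0.46. In the arm without stavudine, all 18 differences stayed positive without recurrent 17-DMAG replicate 1 (median 0.35). Those with an unadjusted edgeR p under 0.05 went from 4 to 0. The 8 markers of cycling cells summed to 519 to 804 CPM in primary tumors and to 874, 826 and 827 CPM in recurrent 17-DMAG tumors. In the 2 recurrent stavudine tumors they were lower, at 378 and 167 CPM. The part of cycling cells in the pattern of both arms was not tested. Mki67, the proliferation antigen, was at 198 and 83.8 CPM in the recurrent stavudine tumors against 309 to 523 CPM in the other tumors. Within recurrent tumors Mki67 differed with stavudine by -1.85 (SE 0.33, edgeR adjusted p = 0.166) and was called in 2 of 21 alternatives. Ccna2, encoding cyclin A2, gave -1.41 in the same comparison (SE 0.27, edgeR adjusted p = 0.189) and was likewise called in 2 of 21 alternatives.

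Cdkn1a and Ccnd2 were highest among the tumors in recurrent 17-DMAG plus stavudine replicate 2, without passing the test. Cdkn1a, encoding p21, was at 25.7 and 118 CPM in replicates 1 and 2 of that group, 4.03 to 39.2 CPM in primary tumors and 48.8, 8.40 and 6.19 CPM in recurrent 17-DMAG tumors. Under stavudine its recurrent minus primary log2 difference was 3.09 (SE 1.10, edgeR adjusted p = 0.441), and 1.605 without replicate 2. Ccnd2 was at 13.1 and 54.3 CPM in replicates 1 and 2, 7.49 to 16.6 CPM in primary tumors and 33.1, 8.89 and 15.4 CPM in recurrent 17-DMAG tumors. Its difference under stavudine was 1.72 (SE 0.62, edgeR adjusted p = 0.448), and 0.35 without replicate 2. Without stavudine, E2f8, a repressive E2F, differed by 0.85 between recurrent and primary tumors (SE 0.29, edgeR adjusted p = 0.509). Rbl2, encoding p130, differed by -0.40 over all tumors (SE 0.18, edgeR adjusted p = 0.363), opposite in sign to Rb1.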

How the data were processed

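Total RNA depleted of ribosomal RNA was sequenced from 2 mammary glands and 11 tumors. Per the labels and the study's methods, the authors made fastq files with bcl2fastq 2.20, aligned them with STAR to mm10 and counted reads per gene with featureCounts (Subread 1.6.2). They deposited raw read counts for 24421 gene symbols; the strand and multimapping settings are not given in the sources used here. Samples were grouped by their labels, and nothing says whether libraries of a group came from separate mice beyond being individual tumors, so p-values measure the spread between these libraries.

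Genes passing filterByExpr (17135 over 13 libraries, 16870 over 11 tumors) were fitted with edgeR 4.0.16 (R 4.3.3) with TMM factors, group means and quasi-likelihood F tests, two-sided, with Benjamini-Hochberg adjustment at 0.05. Glands entered only the tumor against gland fit. Fold changes use edgeR's log2 scale, and log CPM a prior count of 2. Exon lengths, positions and overlaps come from GENCODE M21 on GRCm38, the build of the counts. Alternatives were DESeq2 1.42.0 size factors, DESeq2's Wald test, limma 3.58.1 voom, TMM without tissue marker genes, no low-count filter, contrast groups alone, a replicate block and each library left out. The script was tested on simulated data. Totals of 39921388 to 56887708 make 3 counts worth 0.0587 to 0.107 CPM.

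The members and lists were chosen with earlier results of these data known. Named outside the members are called pathway genes (up to 4 each way), otherwise the 2 with the smallest unadjusted p each way, 12 fixed regulators and the 5 genes most like Rb1; gene neighbours were added after values were seen. Replicate numbers did not pair the tumors: same-numbered tumors of different groups had a median correlation of deviations of -0.05 (range -0.30 to 0.22, 15 pairs), and different numbers 0.03. No libraries of a group agreed within sampling noise (lowest chi-square per degree of freedom 45.3).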

Additional observations from a re-analysis of the deposited data

Results flagged for a closer look

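The 10 genes, each in the 6 primary and the 5 recurrent tumors, gave 20 sets of values. In 7 of these, the gap of the highest tumor to the next exceeded Dixon's 95% critical value. About 1 in 20 sets would have such a gap at either their highest or their lowest value if each were drawn from a single normal distribution. Here each set pools the stavudine and no-stavudine tumors, uses CPM on a linear scale and shares its tumors with other sets. The number to be met by chance is therefore not known. Rb1 stood out at 378 CPM in recurrent 17-DMAG plus stavudine replicate 1, with the next recurrent tumor at 195 CPM. Ccnd1 stood out at 630 CPM in primary stavudine replicate 2 (next 352 CPM) and at 745 CPM in recurrent 17-DMAG plus stavudine replicate 2 (next 331 CPM). Cdkn2a stood out in the same tumors, at 6.22 CPM (next 0.612 CPM) and 14.05 CPM (next 2.06 CPM). Cdkn2b stood out at 3.39 CPM in primary stavudine replicate 2 (next 1.10 CPM). Ccne1 stood out at 6.62 CPM in recurrent 17-DMAG replicate 1 (next 3.28 CPM), the tumor with 5572 CPM of fibroblast markers.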

How the results depend on the processing

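For tumors against glands, edgeR called 1785 genes, 3 other pathway genes and 1 member. DESeq2 called 3242, 9 and 2 (the second member being Cdkn2a, adjusted p = 0.0286), and primary untreated tumors alone gave 361, 1 and 0. Leaving out 1 library gave 535 to 4255 genes, 1 to 13 pathway genes and 0 to 3 members, both ends set by the glands. Without recurrent 17-DMAG replicate 1 and recurrent 17-DMAG plus stavudine replicate 2 together, chosen after seeing the data, 6 other pathway genes were called.

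With the replicate block, which the numbers do not justify as a pairing, 371 genes, 1 other pathway gene and 0 members were called for tumors against glands, and signs turned for Rb1 there (0.052), Ccne1 under stavudine in primary tumors (-0.0070), and Cdkn2a (-0.79) and Cdkn2b (-0.45) in the interaction. The member lost under the block was Cdk6, and it changed no call between tumors.

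Where edgeR called 0 genes between tumors, DESeq2 called 17 (stavudine, primary), 277 (stavudine, recurrent), 51 (stavudine, all), 61 (recurrence, no stavudine), 331 (recurrence, under stavudine), 419 (recurrence, all) and 189 (interaction). It called 1, 1 and 2 other pathway genes for stavudine in recurrent tumors, recurrence under stavudine and the interaction. Contrast groups alone gave 2 genes for recurrence under stavudine. Leaving out 1 library gave 0 to 141 genes and 0 to 1 pathway genes for stavudine in recurrent tumors, 0 to 28 over all tumors, 0 to 1 for recurrence without stavudine, 0 to 100 and 0 to 1 under it, 0 to 6 over all, and 0 to 77 and 0 to 1 for the interaction; the highest values came without recurrent 17-DMAG plus stavudine replicate 1, except for recurrence without stavudine (primary untreated replicate 1). Without both tumors named above, 5, 8 and 5 genes were called for stavudine in recurrent tumors, recurrence under stavudine and recurrence over all.

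Signs that turned belonged to differences not called. For tumors against glands, leaving out 1 library gave -0.41 to 0.62 for Rb1, -0.53 to 0.43 for E2f1 and -0.12 to 1.28 for Cdkn2b; without both tumors Rb1 was 0.0011 and Cdkn2b -0.31, and Cdkn2b was -0.91 with primary untreated tumors alone. For stavudine in primary tumors the ranges were -0.012 to 0.24 for Rbl1, -0.048 to 0.63 for Ccnd1, -0.37 to 0.37 for Ccne1, -0.18 to 0.10 for Cdk4, -0.45 to 0.063 for Cdk6, -0.079 to 0.082 for Cdkn1b and -0.35 to 2.92 for Cdkn2a; voom gave -0.067 for Ccne1, and Cdkn1b was 8.1e-05 under TMM without tissue markers, 0.0020 with the contrast groups alone and 0.0024 without both tumors. For stavudine in recurrent tumors they were -0.064 to 1.39 for Ccnd1, -0.30 to 0.38 for Cdk6, -1.44 to 3.34 for Cdkn2a and -1.21 to 2.12 for Cdkn2b, and -0.23, -0.088, -1.03 and -0.45 without both tumors. For stavudine over all tumors they were -0.31 to 0.031 for E2f1 (0.11 without both), -0.24 to 0.10 for Cdk6 and -0.041 to 1.63 for Cdkn2b. For the interaction they were -0.24 to 0.85 for Rb1, -0.46 to 0.99 for Ccnd1, -0.13 to 0.55 for Cdk6, -3.79 to 2.74 for Cdkn2a and -2.34 to 0.99 for Cdkn2b; without both tumors Ccnd1 was -0.63, Cdkn2a -3.38 and Cdkn2b -1.58, and voom gave -0.26 for Cdkn2b. The cause was not tested. Of 1030 values of tested member differences under alternatives, 960 kept their sign and side of the threshold. Rb1, Ccnd1, Cdkn2a and Cdkn2b rest most on single tumors, and Cdkn2a, Cdkn2b and Ccne1 on low counts (medians of 29, 55 and 144 reads per library).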
